A study of Mus musculus with 9 samples.

Results

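The serpins are a family of proteins with a shared fold, most of which inhibit serine proteases, and the liver makes many of the serpins found in plasma. The family was taken as every probe set whose annotation gave exactly 1 gene, with a symbol of Serpin, a clade letter from a to i and a number. This gave 39 of the 22690 probe sets on the array, for 30 of the 12393 genes with such a probe set. Of these, 21 probe sets of 18 genes were bright enough to be tested. A further 3 probe sets matched several serpin genes at once and were left out of the counts.

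RNA from whole mouse liver was profiled on 9 arrays in 3 groups of 3 samples. The mice with a tumour were BALB/c nu/nu males, which lack a thymus, and received the human colon cancer TK-4 in the cecal wall when 6 weeks old, so the sampled liver was not the implanted organ. From day 7 after implantation they were given TSU68, an oral inhibitor of VEGF, PDGF and FGF receptor tyrosine kinases, at 400 mg/kg/day (T-TSU) or vehicle (T-Co) for 1 week. The third group carried no tumour and was given vehicle (NT-Co); its strain, sex and age are not stated separately in the labels. No sham implantation is described, so tumour and surgery cannot be told apart. Mice given the drug without a tumour are not analysed here. The labels number the samples without saying whether animals were separate; p-values then reflect only how far these samples spread, and 3 arrays in a group limit the precision.

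An inhibitory serpin presents an exposed loop to its target protease. Once that loop is cut the serpin changes shape and traps the enzyme, so each molecule is used once. Members of clades A, C, D, F and G are mostly secreted by hepatocytes and act in plasma on clotting, fibrin-dissolving, complement and leukocyte proteases. Clade B members stay inside cells and protect them from their own proteases or from those of leukocytes. A few serpins inhibit nothing: they carry hormones, help to fold collagen, or act as signals between cells.

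Array medians lay between 107 and 119, and within a group an array correlated with the others at 0.947 to 0.964 on average. The ratio of 3' to 5' signal for beta-actin, a gauge of intact RNA, averaged 2.72 ± 0.44 for NT-Co, 1.98 ± 0.11 for T-Co and 2.02 ± 0.20 for T-TSU (SD, n = 3). The beta-actin ratio was thus higher in NT-Co than in the tumour-bearing groups. For Gapdh the ratio averaged 0.765 ± 0.031 for NT-Co, 0.765 ± 0.039 for T-Co and 0.767 ± 0.075 for T-TSU (SD, n = 3). The part of RNA quality in the results below was not tested. Hepatocyte genes were bright on every array: the intensities of 9 marker genes summed to 231882 to 259082 in NT-Co, 287097 to 293089 in T-Co and 233306 to 260539 in T-TSU. Of these 9, 4 rose in T-Co against NT-Co (Tat, Cps1, Arg1 and Ahsg). Erythroid and platelet markers summed to 2609.8 to 2888 in NT-Co, 1003 to 1585 in T-Co and 1916 to 2802 in T-TSU; of 6 tested 1 fell in T-Co against NT-Co, the heme synthesis gene Alas2, and Hba-a1 was too dim to test. The log2 differences of these 6 in T-Co against NT-Co ranged from -1.84 to 0.40, with a median of -0.19, so they did not all go the same way. The part of blood cells in the results was not tested. In whole liver, a change in the share of a cell type and a change in RNA per cell cannot be told apart. Array T-Co 13 was the highest or lowest of its group for 85.7% of the tested serpin probe sets, against 68.2% of all tested probe sets.

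In T-Co against NT-Co, 4 serpin probe sets passed limma's test (adjusted p under 0.05 over all 15838 probe sets): Serpina3n and Serpina10 rose, and Serpina12 and Serpinb9 fell. That is 19.0% of the 21, where 6.54% of all tested probe sets passed, 4.16% as higher and 2.38% as lower. An unadjusted p under 0.05 was reached by 11 of the 21, against 22.2% of all. The median log2 difference of the 21 was -0.13, against 0.01 over all tested probe sets. In T-TSU against T-Co, 0 of the 21 passed by limma, where 0.0505% of all tested probe sets did. In that comparison 10 of the 21 had an unadjusted p under 0.05, against 10.5% of all, the smallest adjusted p was 0.0593, and the median was -0.18 against -0.01 over all. In T-TSU against NT-Co, 0 of the 21 passed by limma, against 3.85% of all. There 3 had an unadjusted p under 0.05, against 16.9% of all, the smallest adjusted p was 0.0572, and the median was -0.12 against -0.00 over all. Limma's F test for any difference among the 3 groups called 3 of the 21, namely Serpina12, Serpina3n and Serpina10, against 5.7% of all tested probe sets. Because the same T-Co arrays enter the tumour and the drug comparison, values that are high in T-Co give opposite signs in both without a separate measurement.

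The groups did not overlap for 10 of the 21 probe sets in T-Co against NT-Co, where 26.9% of all tested probe sets did not. This held for 13 of the 21 in T-TSU against T-Co, where the share of all was 14.1%. In T-TSU against NT-Co it held for 6 of the 21, where the share was 24.2%. The 13 include 3 Serpina1 probe sets, which may share signal. Liver genes outside the family, among them Alb, Ttr, Fga, Fgb and Fgg, also had every T-TSU array below every T-Co array. Others, such as F8 and F12, overlapped, so the lack of overlap was not particular to serpins.

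**Figure D1:**
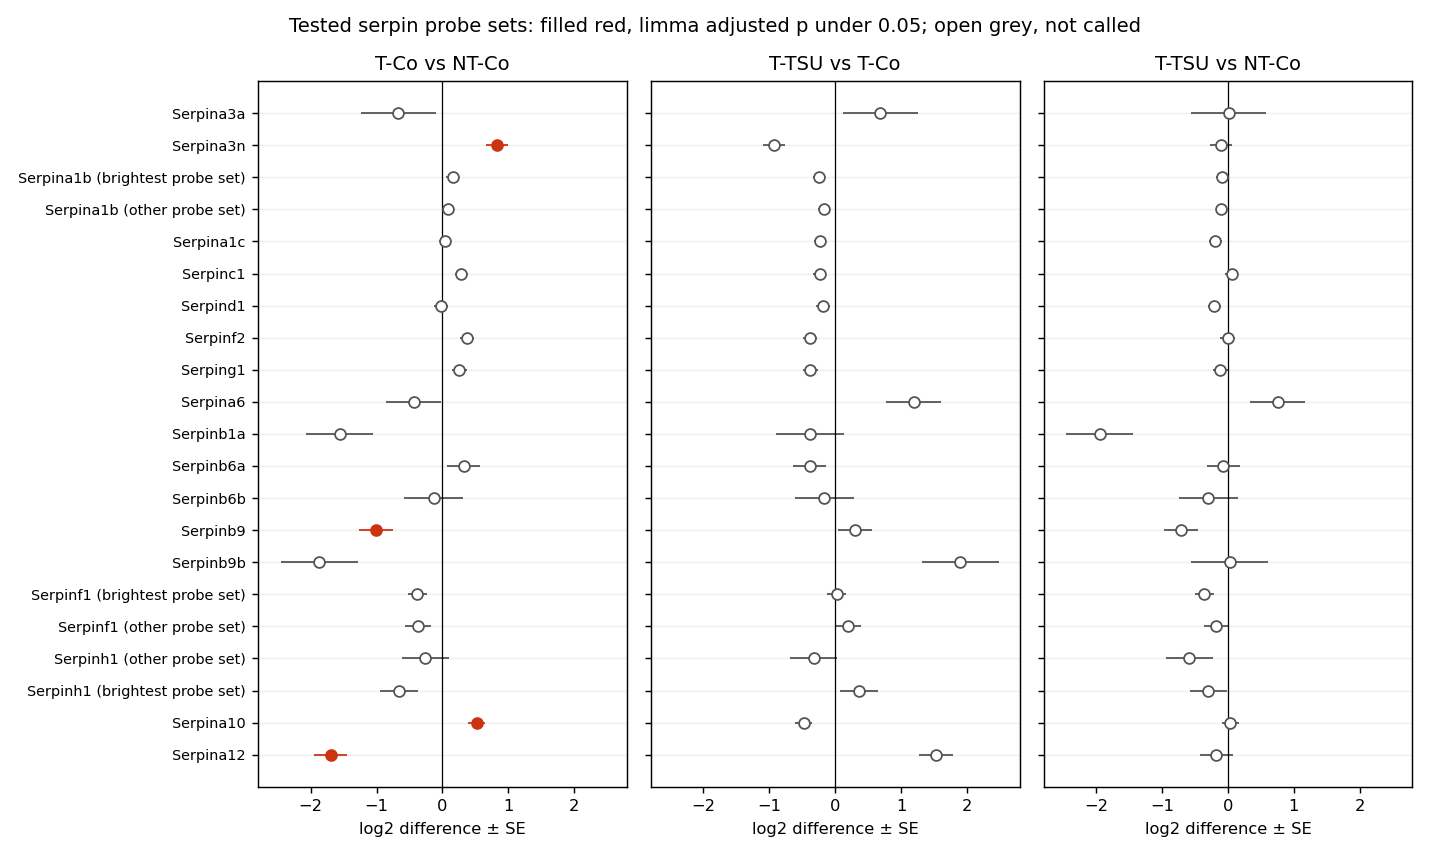
Log2 differences of the 21 tested serpin probe sets in the 3 comparisons, with bars of ± SE from the limma fit; filled red points passed limma's test at an adjusted p under 0.05 and open grey points did not. The 4 filled points all lie in the T-Co against NT-Co panel, with Serpina12 furthest to the left at -1.70 and Serpina3n furthest to the right at 0.82.

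Serpina3n belongs to the antichymotrypsin family, which has expanded in the mouse; its product is an acute-phase plasma protein that inhibits leukocyte proteases such as granzyme B and elastase. Its intensity was 9259.8, 8335 and 7860.1 in NT-Co arrays 8, 10 and 11, 12132, 13999 and 19835 in T-Co arrays 9, 10 and 13, and 6705, 8851 and 8134 in T-TSU arrays 2, 12 and 14. All T-Co arrays lay above all arrays of both other groups, with array 13 the highest, while NT-Co and T-TSU overlapped. The group means were 8485 ± 712, 15322 ± 4018 and 7897 ± 1092 (SD, n = 3). Serpina3n rose by 0.82 ± 0.17 (log2, SE) in T-Co against NT-Co, 1.77-fold, with a limma adjusted p of 0.0135. Without array NT-Co 11 the adjusted p was 0.0614, and without the intensity trend in the variance it was 0.0729. The T-TSU against T-Co difference was -0.93 ± 0.17 and did not pass (limma adjusted p = 0.0700), and against NT-Co it was -0.11 ± 0.17 (0.828).

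The promoters of 3 serpins called in T-Co against NT-Co are shown where each gene is described, as the 250 bases before the RefSeq start (assembly GRCm38.p6), to place the calls beside short motifs of factors active in liver. The table of promoters held windows for 26 of the 30 serpin genes, 14 of them tested. Serpina10, the remaining called serpin, had no window and was not searched. The motifs were searched on both strands, with N for any base: STAT (TTCNNNGAA), C/EBP (TTGCNNAA), an E-box (CACGTG) and, by name only, HNF1, NF-kB and the palindromic glucocorticoid element. A match is a string of letters and not a bound site.

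The window of Serpina3n (chr12:104406458-104406707, plus strand) is printed 5′ to 3′ with its match to the glucocorticoid element in capitals, 78 to 66 bases before the start. Of all promoter windows, 0.387% hold this motif, and Serpina3n was the single serpin gene of the 26 that did.
Serpina3n: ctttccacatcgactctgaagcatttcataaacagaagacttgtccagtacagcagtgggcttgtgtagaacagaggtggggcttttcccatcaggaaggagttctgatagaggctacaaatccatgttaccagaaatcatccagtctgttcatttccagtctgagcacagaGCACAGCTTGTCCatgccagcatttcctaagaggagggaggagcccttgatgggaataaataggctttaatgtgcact

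The other tested member of this family, Serpina3a, was dim. Its intensity was 51.6, 83.6 and 53.9 in the NT-Co arrays, 7.21, 60.2 and 73.0 in the T-Co arrays and 58.4, 67.7 and 61.1 in the T-TSU arrays. The groups overlapped, and array T-Co 9 was far below the other arrays. The log2 difference was -0.67 ± 0.57 in T-Co against NT-Co (limma adjusted p = 0.546), and its direction turned to 0.09 without T-Co 9. Paralogs in this family are alike in sequence, so signal may be shared between their probe sets.

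Serpina10 encodes the protein Z-dependent inhibitor, which acts on clotting factor Xa with protein Z as its cofactor. Its intensity was 8657, 9416 and 7956 in the NT-Co arrays, 11971, 10740.1 and 14818 in the T-Co arrays, and 8351, 9255 and 9066 in the T-TSU arrays. T-Co lay above both other groups on every array, with array 13 again the highest, and NT-Co and T-TSU overlapped. Serpina10 rose by 0.52 ± 0.13 in T-Co against NT-Co, 1.43-fold, with a limma adjusted p of 0.0313. The call was lost without NT-Co 8 (adjusted p = 0.0952), NT-Co 11 (0.134), T-Co 9 (0.0543) or T-Co 13 (0.0693), and with arrays centred on their medians (0.0700), no filter (0.0544), no intensity trend (0.119) or only the 2 groups fitted (0.0607). T-TSU differed from T-Co by -0.48 ± 0.13 (limma adjusted p = 0.207) and from NT-Co by 0.04 ± 0.13 (0.932).

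Serpina12 encodes vaspin, a secreted serpin known from fat tissue, where it is linked to insulin sensitivity, and an inhibitor of kallikrein 7. Its intensity was 395, 433 and 472 in the NT-Co arrays, 106, 130.5 and 151 in the T-Co arrays, and 589.7, 271 and 348 in the T-TSU arrays. Every T-Co array lay below every array of both other groups. The T-TSU arrays spread widely and spanned the NT-Co range, with array 2 the highest of the 9. Serpina12 fell by 1.70 ± 0.26 on the log2 scale in T-Co against NT-Co, 3.25-fold lower, with a limma adjusted p of 0.00294. It was below the threshold in 18 of 18 alternative analyses, with adjusted p from 0.00101 to 0.0198, which set it apart from the other called serpins. T-TSU was 1.52 ± 0.26 above T-Co, 2.88-fold, but this did not pass (limma adjusted p = 0.0593). That adjusted p passed in 3 of 18 alternative analyses, at 0.0325 without T-TSU 12, 0.0492 with a larger pseudocount and 0.0491 with a robust trend. In the other 15 it did not pass, and it reached 0.305. Against NT-Co the T-TSU difference was -0.17 ± 0.26 (0.819).

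The window of Serpina12 (chr12:104044444-104044693, minus strand) held a C/EBP match, in capitals, 90 to 83 bases before the start. C/EBP matches occurred in 9.56% of all promoter windows and in 4 of the 26 serpin genes, the others being Serpina1b, Serpina5 and Serpinb2.
Serpina12: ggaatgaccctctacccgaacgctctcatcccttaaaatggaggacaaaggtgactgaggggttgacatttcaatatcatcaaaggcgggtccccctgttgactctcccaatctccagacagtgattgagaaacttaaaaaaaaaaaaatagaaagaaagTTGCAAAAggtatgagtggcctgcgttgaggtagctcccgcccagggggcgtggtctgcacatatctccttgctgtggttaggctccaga

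**Figure D2:**
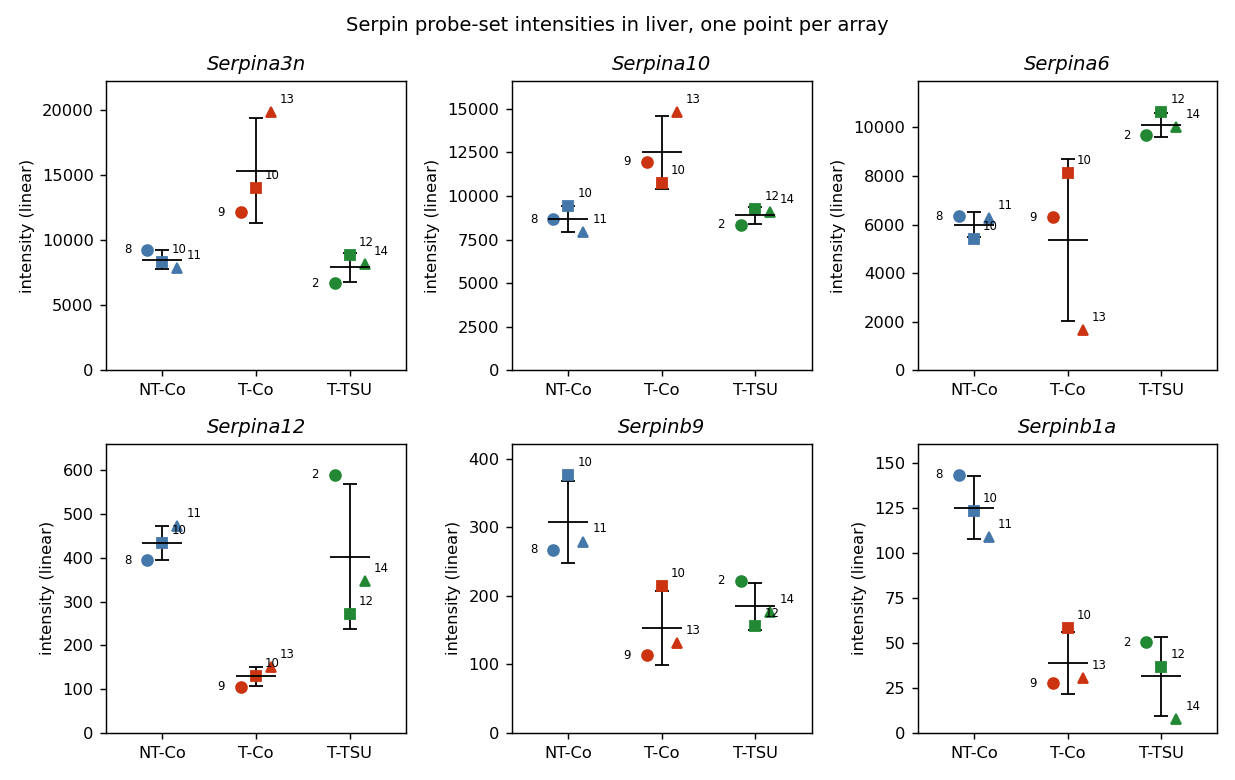
Linear intensities of 6 serpin genes in the 9 arrays, with 1 point per array labelled by its number, the horizontal line at the group mean and bars of ± SD (n = 3). Serpina3n and Serpina10 are highest in T-Co and Serpina12 is lowest there, while Serpinb9 and Serpinb1a are higher in NT-Co than in either tumour-bearing group.

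The antitrypsin family supplies the main plasma inhibitor of neutrophil elastase, and the mouse carries several nearly identical copies. Its brightest probe set, that of Serpina1c, read 40610.1, 40943 and 45762 in the NT-Co arrays, 45507, 46137 and 39125 in the T-Co arrays, and 38154, 36754 and 36362 in the T-TSU arrays. T-TSU lay below both other groups on every array, and NT-Co and T-Co overlapped. The log2 difference in T-Co against NT-Co was 0.04 ± 0.09 (limma adjusted p = 0.868), and turned to -0.11 with quantile normalization and -0.018 with centring. It was -0.23 ± 0.09 in T-TSU against T-Co (0.419) and -0.19 ± 0.09 against NT-Co (0.339), and none passed. Over 18 alternative analyses the T-TSU against T-Co difference ranged from -0.31 to -0.017.

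Serpina1b, a second copy, had means of 36601 ± 2609.8, 40702 ± 2174 and 34350.2 ± 2089 in NT-Co, T-Co and T-TSU. Its difference was 0.15 ± 0.09 in T-Co against NT-Co (limma adjusted p = 0.369) and -0.25 ± 0.09 in T-TSU against T-Co (0.385), and its other probe set gave the same signs, uncalled. Over 19 alternative analyses the T-TSU against T-Co difference of Serpina1b ranged from -0.29 to -0.029. Because the paralogs may share signal, these readings cannot be assigned to 1 copy. The probe sets that name several Serpina1 copies differed by 0.03 ± 0.11 and 0.11 ± 0.22 in T-Co against NT-Co, with limma adjusted p of 0.911 and 0.822.

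The serpins that hold clotting, fibrin breakdown and complement in check were Serpinc1, Serpind1, Serpinf2 and Serping1, and 0 of these 4 passed limma's test in any comparison. Serpinc1 encodes antithrombin, the main brake on thrombin and factor Xa. Its intensity was 17180.2, 20944 and 20316 in the NT-Co arrays, 23629, 24155 and 23288 in the T-Co arrays and 19218, 20658 and 20618 in the T-TSU arrays. All T-Co arrays were above the arrays of both other groups, and the difference was 0.29 ± 0.10 against NT-Co (limma adjusted p = 0.107). In T-TSU it was -0.23 ± 0.10 against T-Co (0.429).

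Serpinf2 encodes antiplasmin, which limits the breakdown of fibrin. Its intensity was 12994, 12888 and 13641 in the NT-Co arrays, 16159, 16188 and 18890.5 in the T-Co arrays, and 12773, 14670.1 and 12018 in the T-TSU arrays. T-Co lay above the other groups without overlap. The difference against NT-Co was 0.37 ± 0.11, 1.29-fold, with a limma adjusted p of 0.0602, and T-TSU against T-Co gave -0.38 ± 0.11 (0.241). With a stricter filter on dim probe sets the first adjusted p was 0.0449, and with a robust trend 0.0495. These were the 2 of 18 alternative analyses that passed, and it reached 0.189.

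Serping1, the C1 inhibitor of complement and of plasma kallikrein, read 18387, 18336 and 18317 in the NT-Co arrays, 19148, 22161 and 24869 in the T-Co arrays, and 14998, 17464 and 18414 in the T-TSU arrays. The 3 NT-Co arrays had an SD of 35.9, and T-Co lay above them all. The difference of 0.26 ± 0.12 did not pass (limma adjusted p = 0.213), nor did that of -0.38 ± 0.12 in T-TSU against T-Co (0.288).

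Serpind1, or heparin cofactor II, a thrombin inhibitor activated by dermatan sulfate, differed least of the 4 between T-Co and either other group. Its difference was -0.02 ± 0.10 in T-Co against NT-Co (limma adjusted p = 0.924). It was -0.18 ± 0.10 in T-TSU against T-Co (0.567), where all T-TSU arrays, at 7750.4 to 8142, lay below all others.

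Serpina6 encodes corticosteroid-binding globulin, a serpin without known protease targets that carries glucocorticoids in plasma. Its intensity was 6349, 5395 and 6253 in the NT-Co arrays, 6314, 8109 and 1675 in the T-Co arrays, and 9668, 10633 and 10023 in the T-TSU arrays. All T-TSU arrays lay above all others, and T-Co spanned NT-Co because array 13 was low. The mean in T-TSU was 10108 ± 488, against 5999 ± 525 in NT-Co. The difference of 0.75 ± 0.42 in T-TSU against NT-Co, 1.69-fold, did not pass with the spread shared over all groups (limma adjusted p = 0.407). Fitted on those 2 groups alone the adjusted p was 0.00163, and without T-Co 13 it was 0.00311. T-TSU differed from T-Co by 1.19 ± 0.42 (0.338), and 0.50 without T-Co 13. In T-Co against NT-Co it was -0.44 ± 0.42 (0.595), and turned to 0.26 without that array.

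Of 7 measured partners of hormone transport, 0 passed limma's test in any comparison. On array T-Co 13 the deiodinase Dio1, which activates thyroid hormone, read 120.1, and its difference in T-Co against NT-Co was -1.34 ± 0.48 (limma adjusted p = 0.123). Hsd11b1, which regenerates active glucocorticoid inside cells, differed by -0.24 ± 0.13 (0.293).

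Of the intracellular clade B, 5 genes were tested and 1 was called. Serpinb9, the inhibitor of granzyme B that shields cytotoxic lymphocytes and other cells, read 267, 377 and 279 in the NT-Co arrays, 113, 215 and 131 in the T-Co arrays and 222, 156 and 176 in the T-TSU arrays. NT-Co lay above both tumour-bearing groups on every array, and the tumour-bearing groups overlapped. Serpinb9 fell by 1.01 ± 0.26 on the log2 scale in T-Co against NT-Co, 2.01-fold lower, with a limma adjusted p of 0.0373. The call was lost without any 1 of NT-Co 8 (0.0760), NT-Co 10 (0.119), NT-Co 11 (0.0929), T-Co 9 (0.100), T-Co 13 (0.0993) or T-TSU 14 (0.0556), and with no filter (0.0619), no trend (0.0761) or only the 2 groups fitted (0.0590). In T-TSU the difference was 0.30 ± 0.26 against T-Co (limma adjusted p = 0.737) and -0.71 ± 0.26 against NT-Co (0.169).

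Serpinb9 is made by lymphocytes as well as by liver cells, so the lymphocyte markers are given beside it. Of 10 T, B and NK cell markers on the array 3 were bright enough to test and 0 were called by limma; the list summed to 244 to 507 in NT-Co, 362 to 389 in T-Co and 243 to 387 in T-TSU. Cd3g, Cd8a, Cd4, Nkg7, Gzmb, Cd79a and Ncr1 were too dim to test. The part of these cells in the Serpinb9 difference was not tested.

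The window of Serpinb9 (chr13:33004291-33004540, plus strand) is shown because the gene lay in the called set; it held no match to the 6 motifs and has no capitals. That says only that these letters are not in this window. STAT matches were in 7.02% of all windows and in 3 serpin genes (Serpinb2, Serpinb6a and Serpinb9c), while the HNF1, NF-kB and E-box motifs, in 0.00913%, 1.21% and 6.02% of all windows, were in 0 serpin windows.
Serpinb9: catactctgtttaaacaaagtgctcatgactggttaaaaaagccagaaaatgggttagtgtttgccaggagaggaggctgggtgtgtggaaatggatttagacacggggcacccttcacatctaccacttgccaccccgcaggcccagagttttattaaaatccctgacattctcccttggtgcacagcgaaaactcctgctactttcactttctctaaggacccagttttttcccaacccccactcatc

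Serpinb1a, an inhibitor of neutrophil elastase and other leukocyte proteases, read 144, 123 and 109 in the NT-Co arrays, 27.6, 58.4 and 30.3 in the T-Co arrays, and 50.5, 36.8 and 7.53 in the T-TSU arrays. Both tumour-bearing groups lay below NT-Co on every array and overlapped with each other. The difference was -1.56 ± 0.51 in T-Co against NT-Co, 2.95-fold lower (limma adjusted p = 0.0925), and -1.95 ± 0.51 in T-TSU against NT-Co, 3.86-fold lower (0.0572). Neither passed, and these folds are understated because the values approach the pseudocount. The T-TSU comparison gave an adjusted p of 0.0437 without T-TSU 2, and the T-Co comparison 0.0373 without T-TSU 14. They passed in 5 and 3 of 17 alternative analyses, and their adjusted p reached 0.189 and 0.245. T-TSU differed from T-Co by -0.39 ± 0.51 (0.843), and 0.19 without T-TSU 14. A second Serpinb1a probe set, too dim to test, read 42.4, 22.1 and 33.5 in the NT-Co arrays and 9.96, 31.0 and 48.3 in the T-Co arrays. In the T-TSU arrays it read 6.13, 17.4 and 3.97. There T-Co overlapped NT-Co, while T-TSU lay below NT-Co on every array.

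Neutrophil markers are given for the same reason. Of 10 on the array 6 were tested and 0 called by limma in T-Co against NT-Co, and the list summed to 685 to 1111 in NT-Co, 1004 to 2384 in T-Co and 614 to 1004 in T-TSU. Camp, Cxcr2, Ltf and Mmp8 were too dim to test. The part of neutrophils in the Serpinb1a values was not tested.

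Serpinb9b, a mouse paralog of Serpinb9, read 105, 62.2 and 80.8 in the NT-Co arrays, 4.55, 63.7 and 8.17 in the T-Co arrays, and 70.0, 93.8 and 85.8 in the T-TSU arrays. Arrays T-Co 9 and 13 were far below the other arrays, while T-Co 10 was within the NT-Co range. The differences of -1.87 ± 0.59 in T-Co against NT-Co (limma adjusted p = 0.0794) and 1.90 ± 0.59 in T-TSU against T-Co (0.292) did not pass. Without T-Co 10 they were -2.65 and 2.68, with adjusted p of 0.00803 and 0.0435. In each comparison this was the 1 of 17 alternative analyses that passed, and the adjusted p reached 0.227 and 0.571. That fit rests on T-Co 9 and 13, at 4.55 and 8.17, close to the pseudocount of 7.92. Their signal is near background.

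Serpinb6a, an intracellular inhibitor of cathepsin G, and its paralog Serpinb6b had overlapping groups in T-Co against NT-Co. Their differences there were 0.32 ± 0.25 (limma adjusted p = 0.506) and -0.13 ± 0.45 (0.902). Between T-TSU and T-Co they were -0.39 ± 0.25 (0.633) and -0.16 ± 0.45 (0.939).

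**Figure D3:**
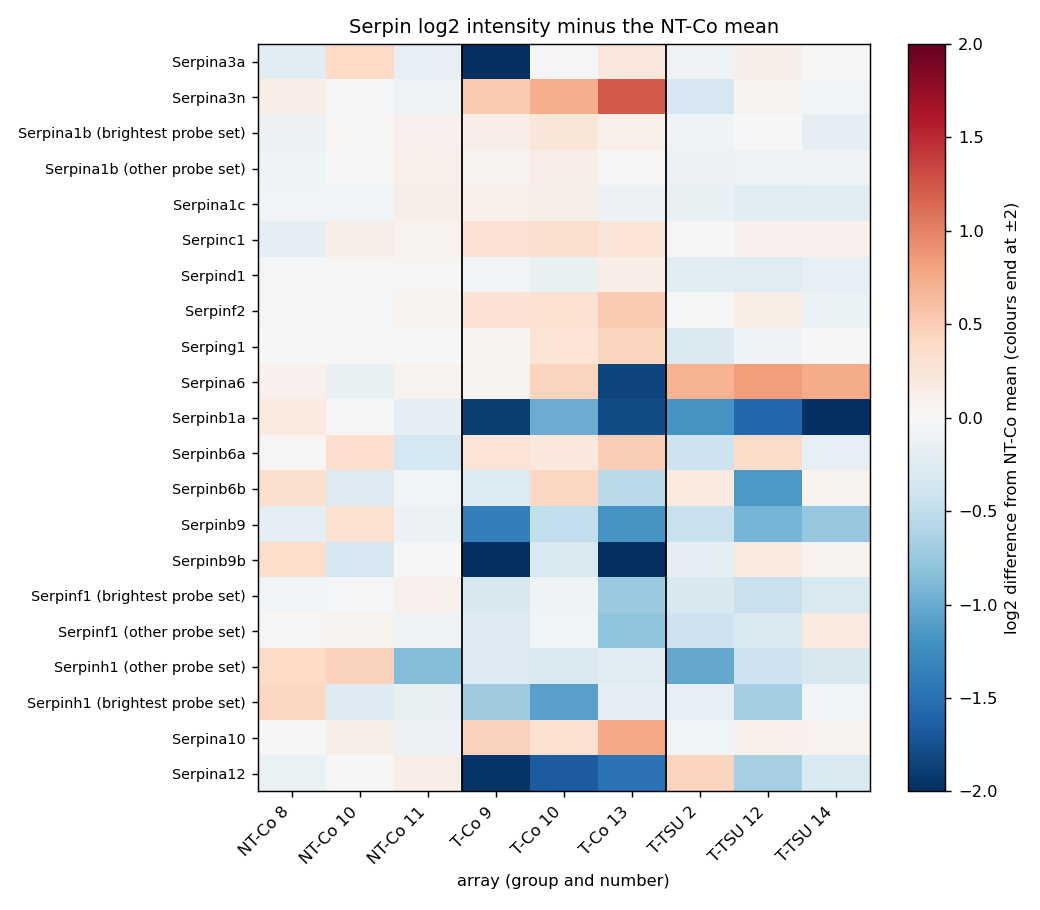
Log2 intensity of the 21 tested serpin probe sets in each of the 9 arrays, minus the mean of the NT-Co arrays; red is above and blue below that mean, and colours end at ±2. The T-Co columns are blue for Serpina12 and Serpinb9 and red for Serpina3n and Serpina10 on all 3 arrays, while the low Serpina6 value stands in array T-Co 13.

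Among the serpins that inhibit no protease, Serpinf1 encodes pigment epithelium-derived factor, a secreted protein that restrains blood vessel growth. Its intensity was 14493, 14556 and 15939.6 in the NT-Co arrays, 12028, 14118 and 8925 in the T-Co arrays and 12004, 11039.6 and 12068 in the T-TSU arrays. NT-Co lay above both tumour-bearing groups on every array, and these overlapped with each other. The difference was -0.38 ± 0.14 in T-Co against NT-Co (limma adjusted p = 0.141) and -0.36 ± 0.14 in T-TSU against NT-Co (0.228), and neither passed. Without T-Co 10 the first was -0.53 (0.0413), and without T-Co 13 the second had an adjusted p of 0.0490. The first passed in 1 and the second in 2 of 19 alternative analyses, and their adjusted p reached 0.340 and 0.466. The gene's other probe set also gave negative differences in both, -0.37 ± 0.19 and -0.17 ± 0.19, uncalled.

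Serpinh1 encodes the collagen chaperone HSP47 of the endoplasmic reticulum. Its brightest probe set read 285, 176 and 189.8 in the NT-Co arrays, 127, 95.8 and 186 in the T-Co arrays and 189.6, 129 and 204 in the T-TSU arrays, with all groups overlapping. The difference was -0.66 ± 0.29 in T-Co against NT-Co (limma adjusted p = 0.199), and -0.26 ± 0.36 for the gene's other probe set (0.728). In T-TSU against T-Co the 2 probe sets differed in sign, at 0.36 ± 0.29 and -0.32 ± 0.36, so no direction is given.

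Of 12 tested collagens and collagen-processing partners of Serpinh1, 0 rose and 2 fell in T-Co against NT-Co, with a median of -0.53. Col3a1, a fibrillar collagen, fell by 1.03 ± 0.20 (limma adjusted p = 0.0101), but had an adjusted p of 0.0544 without NT-Co 8. Sparc, a collagen-binding matrix protein, fell by 0.86 ± 0.16 (0.00776). In T-TSU against NT-Co, Sparc fell by 0.68 ± 0.16 (limma adjusted p = 0.0344) and the basement membrane collagen Col4a1 by 0.91 ± 0.22 (0.0362). The Sparc call in T-TSU was lost without any 1 of the 6 arrays compared, with adjusted p of 0.0690 without NT-Co 11 to 0.148 without NT-Co 8, and without the trend (0.0777). The Col4a1 call was lost without NT-Co 8, 10 or 11 or T-TSU 2 or 14, with adjusted p of 0.0975 to 0.138, and without the trend (0.0949). Stellate cell and fibroblast markers summed to 7441 to 8265 in NT-Co, 5876 to 6656 in T-Co and 6736 to 7899.6 in T-TSU, and 2 of the 9 tested, Col3a1 and Lum, fell in T-Co against NT-Co. The log2 differences of these 9 ranged from -1.20 to 1.05 there, with a median of -0.50, so they did not all go the same way. Col3a1 stands in both lists. The part of stellate cells and fibroblasts in the Serpinh1 values was not tested.

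The remaining 12 genes had no probe set bright enough to test: Serpina5, Serpinb1b, Serpinb2, Serpinb5, Serpinb6c, Serpinb7, Serpinb8, Serpinb9c, Serpinb9g, Serpinb11, Serpini1 and Serpini2. A second probe set of Serpina12 and of Serpinb1a was likewise too dim. The tested serpins are therefore those with a bright probe set in this liver, not the family as a whole.

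In the order of genes in the RefSeq table, Serpina10, Serpina6, Serpina1b, Serpina1c, Serpina12, Serpina5, Serpina3a and Serpina3n follow each other within an unbroken run of 23 serpin genes on chromosome 12. Calls in T-Co against NT-Co went both ways within this run, with Serpina10 and Serpina3n at its ends higher and Serpina12 between them lower. Serpina10 and Serpina6 are direct neighbours, and their differences were 0.52 ± 0.13 and -0.44 ± 0.42. On chromosome 13, 9 members lie in a run of 16 serpin genes, where Serpinb9 and Serpinb9b adjoin and differed by -1.01 ± 0.26 and -1.87 ± 0.59, of which the first passed. Serpinf1 and Serpinf2 adjoin on chromosome 11, and their differences of -0.38 ± 0.14 and 0.37 ± 0.11 had opposite signs without passing limma's test.

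The proteases that serpins inhibit were read from lists of genes. Of 20 clotting proteases and cofactors, 0 passed limma's test in T-Co against NT-Co, with a median log2 difference of 0.14 and a smallest adjusted p of 0.0510. Of 9 genes of fibrinolysis, 1 rose: Plg, which encodes plasminogen, the precursor of the protease that Serpinf2 inhibits. Plg read 22762, 24323 and 27606 in the NT-Co arrays, 33081, 34720.5 and 33316 in the T-Co arrays and 27756, 28111 and 28001 in the T-TSU arrays. T-Co lay above the other groups, the rise was 0.44 ± 0.09 (limma adjusted p = 0.0156), and the adjusted p was 0.0729 without NT-Co 8 and 0.0570 without NT-Co 10. The Plg call was also lost with no filter (0.0719), centring (0.0661) or no trend (0.108). Of 10 complement genes 0 passed, with a median of 0.20.

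Of 6 tested leukocyte proteases and caspases, 0 passed limma's test, and Gzmb, Gzmk, Mcpt8, Cma1 and Tpsb2 were too dim to test. The neutrophil protease Prtn3 differed by 1.51 ± 0.56 (limma adjusted p = 0.134) in T-Co against NT-Co, with array T-Co 13 at 1449. Of 7 cysteine cathepsins, lysosomal proteases that some clade B serpins can inhibit, 2 rose. Ctsl went from 11708 ± 770.2 to 17842 ± 1884, a rise of 0.60 ± 0.11 (limma adjusted p = 0.00614, and 0.0581 without the intensity trend). Ctsz went from 4364 ± 334 to 7133 ± 687, a rise of 0.71 ± 0.12 (0.00646). The markers of Kupffer cells and macrophages, which hold many lysosomes, summed to 8497 to 11677 in NT-Co, 11203 to 17099 in T-Co and 5075 to 11079.6 in T-TSU, and 1 of 11, Cd163, rose; their part in the cathepsin values was not tested. Of 5 kallikreins and pancreatic or membrane proteases, 1 fell: the elastase Cela1, from 2173 ± 205 to 605 ± 136, a fall of 1.85 ± 0.24 (0.00133). Exocrine pancreas markers, a list that includes Cela1, summed to 2265 to 2533 in NT-Co, 819.9 to 1122 in T-Co and 1188 to 1879.5 in T-TSU. Of its 8 genes on the array 3 were tested, Cela1 alone was called, and Cela2a, Ctrb1, Cpa1, Cpb1 and Serpini2 were too dim to test. Cela1 also made up most of the summed intensity in every group. Prss2, another of the 3 tested, went the other way, by 1.38 ± 0.54 in T-Co against NT-Co (limma adjusted p = 0.158). The median of the 3 was -0.39. The part of pancreatic tissue in the Cela1 values was not tested.

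Other inhibitors made by the liver stood beside the serpins: of 18 tested, 4 rose and 1 fell in T-Co against NT-Co. Agt encodes angiotensinogen, which has the serpin fold but a symbol outside the family's pattern. It went from 7795 ± 109.7 to 13531 ± 1983, a rise of 0.79 ± 0.15 (limma adjusted p = 0.00894, and 0.0609 without the intensity trend). Fetub, which encodes the metalloprotease inhibitor fetuin-B, rose by 0.85 ± 0.16 (0.00963, and 0.0615 without the trend), from 7907 ± 331 to 14660.2 ± 4334. Itih3, a chain of the inter-alpha inhibitor, rose by 0.56 ± 0.13 (0.0274), and Ahsg, fetuin-A, by 0.51 ± 0.10 (0.0135). Without NT-Co 8 their adjusted p was 0.112 and 0.0613, and for Itih3 it was 0.0827 without NT-Co 11. The Itih3 call was also lost with no filter (0.0605), quantile normalization (0.0579), centring (0.0642), no trend (0.116) or only the 2 groups (0.0569), and the Ahsg call with no filter (0.0519) or no trend (0.0911). Tfpi2, a Kunitz-type inhibitor of plasmin and other proteases, fell by 0.78 ± 0.14 in T-Co (0.00606) and by 0.81 ± 0.14 in T-TSU against NT-Co (0.00626), and was called in 18 of 18 alternative analyses in each. Between T-TSU and T-Co, 0 genes of these lists passed limma's test.

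**Figure D4:**
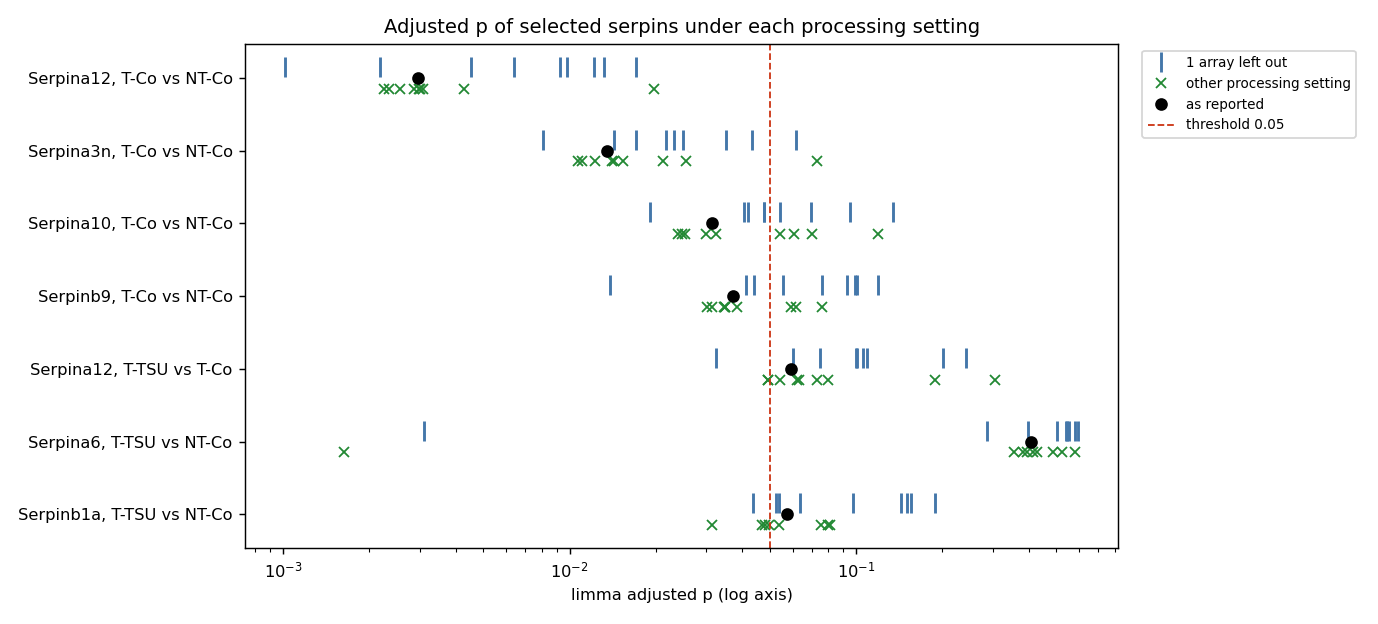
Limma adjusted p of 7 serpin results on a log axis, as reported (black), with 1 array left out (blue ticks) and under other processing settings (green crosses), with the threshold of 0.05 dashed. Serpina12 in T-Co against NT-Co stays below 0.05 throughout, while Serpina10 and Serpinb9 fall on both sides of it.

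Across 18 alternative analyses, 9 of which leave out 1 array, the T-Co against NT-Co call held in 18 for Serpina12, in 16 for Serpina3n, in 10 for Serpina10 and in 9 for Serpinb9. The plot of adjusted p by setting also gives T-TSU against NT-Co, where Serpina6 passed in 2 of 18 and Serpinb1a in 5 of 17. In the plot of intensities by array, the Serpina6 values of T-TSU lie close together and those of T-Co lie far apart.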

How the data were processed

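Per the labels, biotin-labelled cRNA from total liver RNA was hybridised to 3' expression arrays. The values deposited by the authors are linear intensities, 1 per probe set and array; the labels name no scaling software. Each array had a mean of 500.3 after removing 2% of values at each end, so a common scaling had been applied. Groups and replicate numbers come from the sample titles.

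The deposited intensity was transformed to log2(intensity + 7.92), adding the 10th percentile of all values, so folds of dim genes are understated. After 64 control probe sets, 6788 whose mean of these log2 values was under the 30th percentile were left out, leaving 15838. That cut equals an intensity of about 36.2 on the log2 mean, so a few probe sets with a higher linear mean were also left out. A group-means model on all 9 arrays was fitted with limma 3.58.1 in R 4.3.3 (6 residual degrees of freedom, intensity trend, two-sided, Benjamini-Hochberg over all probe sets, threshold 0.05). The model was also run on 5 simulated sets of 15838 probe sets with independent noise, a small share of them raised in T-Co alone. There T-Co against NT-Co called 43.8% of probe sets raised 2-fold and 84.0% of those raised 4-fold, with 6.6 false calls on average. The data held more called probe sets, in both directions, so these rates hold for that setting only.

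Genes were named from the platform annotation, and 30 of 30 serpin symbols were found in the RefSeq table of GRCm38.p6, which also gave gene order and promoters. The file names no genome build. The brightest tested probe set stood for a gene. Values per array are given for called genes, the 3 smallest p-values of each comparison and the brightest gene of each role group; the other array values shown were chosen after they were seen. Called genes of the lists were named, at most 5 per list. Members, gene lists and motifs were chosen with earlier results of these data known.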

Additional observations from a re-analysis of the deposited data

How the results depend on the processing

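Alternatives were 2 other pseudocounts (1 and 32), no filter or one at the 50th percentile, quantile normalization, centring, no trend, a robust trend, only the groups compared, the mean of a gene's probe sets, and leaving out each array; for the other gene lists they were added after seeing the data. Of 4 serpin probe sets called in T-Co against NT-Co, 2 were called with no filter and 1 without the trend; the count was 1 to 6 on dropping an array. In T-TSU against T-Co the count went from 0 to 1 with the pseudocount of 32 and to 1 with the robust trend, and was 0 to 1 on dropping an array. In T-TSU against NT-Co it went from 0 to 1 with the pseudocount of 32, quantile normalization or centring and to 3 with only the 2 groups, and was 0 to 2 with 1 array left out. By the F test 3 became 1 without the trend, and 2 to 5 if an array was dropped. The causes were not tested. Over all probe sets, calls in these comparisons, in the same order, numbered 1036, 8 and 609; they were 473, 0 and 265 without the trend, and 445 to 1016, 0 to 58 and 287 to 793 with an array dropped. Signs turned for Serpina1c in T-Co against NT-Co with quantile normalization (-0.11) and centring (-0.018). In T-TSU against NT-Co they turned for Serpinf2 (0.033, quantile), Serpina3a (-0.034 and -0.017) and Serpinb9b (-0.011 and -0.0017) with quantile normalization and centring; all were uncalled. With 1 array left out, T-Co against NT-Co ranged over -0.0061 to 0.11 for Serpina1c, -1.12 to 0.093 for Serpina3a, -0.88 to 0.26 for Serpina6, -0.41 to 0.070 for Serpinb6b and -0.10 to 0.038 for Serpind1. T-TSU against T-Co ranged over -0.081 to 1.13 for Serpina3a, -0.77 to 0.19 for Serpinb1a, -0.41 to 0.26 for Serpinb6b and -0.16 to 0.17 for Serpinf1. T-TSU against NT-Co ranged over -0.024 to 0.098 for Serpina10, -0.48 to 0.067 for Serpina12, -0.10 to 0.21 for Serpina3a, -0.20 to 0.0033 for Serpina3n, -0.28 to 0.10 for Serpinb6a, -0.54 to 0.13 for Serpinb6b, -0.14 to 0.20 for Serpinb9b, -0.034 to 0.11 for Serpinc1 and -0.088 to 0.056 for Serpinf2. No paired analysis was possible because NT-Co and T-Co share 1 replicate number and T-TSU shares none. Members near the filter have signal close to background, which limits what 3 arrays show.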

Other observations

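Serpinb5, which encodes maspin, an epithelial clade B serpin, was too dim to test, and its probe sets differed among themselves. One read 58.5, 33.6 and 57.4 in NT-Co, with 7.16, 9.55 and 4.99 in T-Co and 7.95, 54.1 and 58.3 in T-TSU. Another read 24.8, 11.6 and 3.51 in NT-Co, with 36.8, 44.6 and 45.3 in T-Co and 12.3, 2.81 and 7.29 in T-TSU. The first was lowest and the second highest in T-Co, so no level is given for the gene. These values were chosen after they were seen.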
